A study of Mus musculus with 48 samples.

Results

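The 10 genes described here mark the walls of brain blood vessels. Cldn5, Cdh5, Pecam1, Flt1, Itm2a and Abcb1a are markers of endothelial cells, and Acta2, Myh11, Rgs5 and Pdgfrb of mural cells, the pericytes and smooth muscle cells that wrap the endothelium. They were chosen by symbol, and all 10 were found among the 38293 genes of the count table. The libraries came from male C57/Bl6 mice aged 9 weeks, on standard chow, fasted for 6 h and injected intraperitoneally (10 µL per g of body weight) with saline, with AC3174, an agonist of the GLP-1 receptor, with AC170222, an agonist of the cholecystokinin (CCK) receptor, or with both. The protocol gives 1 µg/kg for AC3174 and 2.5 µg/kg for AC170222. One field of the labels spells the second drug AC710222, and neither the doses within the combination nor the interval to dissection was stated there. For each of the 4 treatments, the dorsal vagal complex (DVC, hindbrain) and the mediobasal hypothalamus (MBH) gave 3 libraries of total RNA (input) and 3 of RNA precipitated with an antibody to phosphorylated ribosomal protein S6 (IP), so 48 libraries formed 16 groups. The labels name no transgene or deletion in any group. Nothing in the labels says whether each library came from 1 mouse or from pooled tissue, so the p-values measure the spread between these libraries.

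Brain endothelial cells form the blood-brain barrier: tight junctions seal them together, and efflux pumps such as the product of Abcb1a return drugs to the blood. Mural cells contract around the vessel and exchange signals with the endothelium, among them PDGF-B from endothelial cells to the receptor PDGFRB on pericytes. In the DVC and the MBH, small areas beside the ventricles have vessels that lack the tight barrier, through which circulating peptides reach neurons. S6 is phosphorylated when the mTOR or MAP kinase pathways are active, and precipitating it is used to enrich RNA from activated neurons, although S6 is found in every cell type.

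Total counts per library ranged from 29492622 to 95079227 in DVC inputs, from 102116189 to 191252522 in DVC IPs, from 36542586 to 80084056 in MBH inputs and from 21782798 to 73940674 in MBH IPs. Levels are given as CPM, counts per unit of library size after TMM normalization of all 48 libraries, and 1 count was worth 0.00557 to 0.0337 CPM. Fewer than 12000 genes had a count in 6 libraries, all of them IPs: DVC AC3174 replicate 3, MBH saline replicate 3, MBH AC3174 replicates 2 and 3, and MBH AC170222 replicates 2 and 3. Each library code pairs a letter with a number from 1 to 6 and ends in a suffix that begins with S. What these stand for is not said in the labels. The suffixes of the MBH IP combination libraries depart from the pattern of the other codes. The letter differs between the regions and between input and IP, so its part cannot be told apart from theirs. Within a region and RNA kind, saline and AC3174 share a letter, and AC170222 and the combination share another. Saline and AC170222 have the numbers 1 to 3, and AC3174 and the combination 4 to 6, so each drug comparison with saline also differs in letter, number or both, which cannot be told apart from treatment. Neuronal markers were abundant in both regions. The summed level of 10 neuronal genes was 13440 to 15960 CPM in DVC inputs and 16610 to 41850 CPM in DVC IPs, and 7346 to 9049 CPM in MBH inputs and 5012 to 12360 CPM in MBH IPs. The 6 endothelial members together reached 6.52 to 38.4 CPM in DVC inputs and 7.07 to 38.5 CPM in MBH inputs, and the 4 mural members 19.1 to 40.2 CPM and 5.18 to 59.2 CPM. In these bulk samples, fewer vascular cells and less RNA per vascular cell cannot be told apart.

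RefSeq promoter sequences of build GRCm38.p6 were matched for 6 of the 10 members. Shown are 4, each the 250 bases before the RefSeq transcription start on the gene's strand. The Acta2 and Itm2a windows overlap the gene positions given below, which come from another annotation, so distances hold for the RefSeq start only. Flt1 (chr5:147726012-147726261, minus strand), Cldn5 (chr16:18776597-18776846, plus strand) and Itm2a (chrX:107403361-107403610, minus strand) are shown because these 3 endothelial genes had their highest DVC IP level in the same library. Acta2 (chr19:34255374-34255623, minus strand), a smooth muscle gene, is shown for its mean levels in DVC IPs. These were 0.0034 CPM with saline, 3.2 CPM with AC3174, 5.5 CPM with AC170222 and 0.0027 CPM with the combination. By edgeR none of these drug comparisons was called. Capitals mark matches, on either strand, to GGAA, the core that ETS factors bind, to TATAAA, to CATTCC, which TEAD factors bind, and to the CArG box of serum response factor with 1 of its middle letters changed.
Flt1 promoter: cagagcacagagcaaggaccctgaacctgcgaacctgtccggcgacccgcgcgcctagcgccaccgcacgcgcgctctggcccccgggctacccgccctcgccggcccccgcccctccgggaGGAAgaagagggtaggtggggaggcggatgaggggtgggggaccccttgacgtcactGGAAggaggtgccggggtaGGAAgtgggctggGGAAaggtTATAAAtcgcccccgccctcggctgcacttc
Cldn5 promoter: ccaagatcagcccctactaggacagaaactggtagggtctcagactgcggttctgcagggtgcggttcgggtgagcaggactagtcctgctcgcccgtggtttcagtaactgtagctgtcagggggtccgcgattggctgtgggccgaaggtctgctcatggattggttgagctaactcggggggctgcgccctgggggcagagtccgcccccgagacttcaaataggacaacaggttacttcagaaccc
Itm2a promoter: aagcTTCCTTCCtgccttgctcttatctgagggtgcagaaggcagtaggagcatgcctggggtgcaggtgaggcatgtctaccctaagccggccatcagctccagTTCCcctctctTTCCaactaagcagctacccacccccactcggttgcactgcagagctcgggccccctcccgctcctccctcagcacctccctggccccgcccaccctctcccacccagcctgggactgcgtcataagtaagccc
Acta2 promoter: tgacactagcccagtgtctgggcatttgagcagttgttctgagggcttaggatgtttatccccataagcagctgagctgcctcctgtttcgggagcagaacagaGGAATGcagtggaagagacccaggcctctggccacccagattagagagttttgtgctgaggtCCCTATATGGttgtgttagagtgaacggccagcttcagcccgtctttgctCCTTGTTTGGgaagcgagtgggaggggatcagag
GGAA was found 4 times in the Flt1 window and 4 times in the Itm2a window, and in 93.4% of all 32851 promoter windows of this length. The Cldn5 window held none. In the Flt1 window TATAAA began 31 bases before the start, a motif present in 12.4% of windows. The Acta2 window held 2 CArG-like stretches, CCCTATATGG beginning 84 bases and CCTTGTTTGG beginning 34 bases before the start, a pattern found in 7.24% of windows, against 1.47% for the unchanged CArG box. CATTCC, read on the opposite strand, began 146 bases before the Acta2 start, where it shares bases with GGAA, and occurs in 12.6% of windows. In the Acta2 window 1 GGAA, the one within the CATTCC match, is in capitals, and GGAA occurred 3 times there in all, once sharing bases with CCTTGTTTGG. These matches describe letters and were not tested for binding.

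Per kilobase of exon, Itm2a, which encodes a small integral membrane protein, had the highest input level of the 10 in both regions, 6.75 ± 4.09 CPM per kb in DVC and 7.22 ± 4.03 in MBH (SD, n = 12). In DVC it was followed by Rgs5 (3.78 ± 1.10), a regulator of G protein signalling typical of pericytes, by Acta2 (2.82 ± 1.81), smooth muscle actin, and by Cldn5 (1.79 ± 1.32), the main claudin of the barrier. Pdgfrb stood at 0.851 ± 1.01, and Myh11, Pecam1, Flt1 and Abcb1a lay between 0.187 and 0.227. Cdh5, the cadherin of endothelial junctions, was lowest at 0.0366 ± 0.0499. No neighbours in the DVC order differed by more than the larger of their SDs. In MBH the order was Itm2a, Acta2, Rgs5, Cldn5, Myh11, Pdgfrb, Flt1, Pecam1, Abcb1a and Cdh5, and only Rgs5 (2.36 ± 1.41) and Cldn5 (0.809 ± 1.16) were farther apart than the larger SD.

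**Figure D1:**
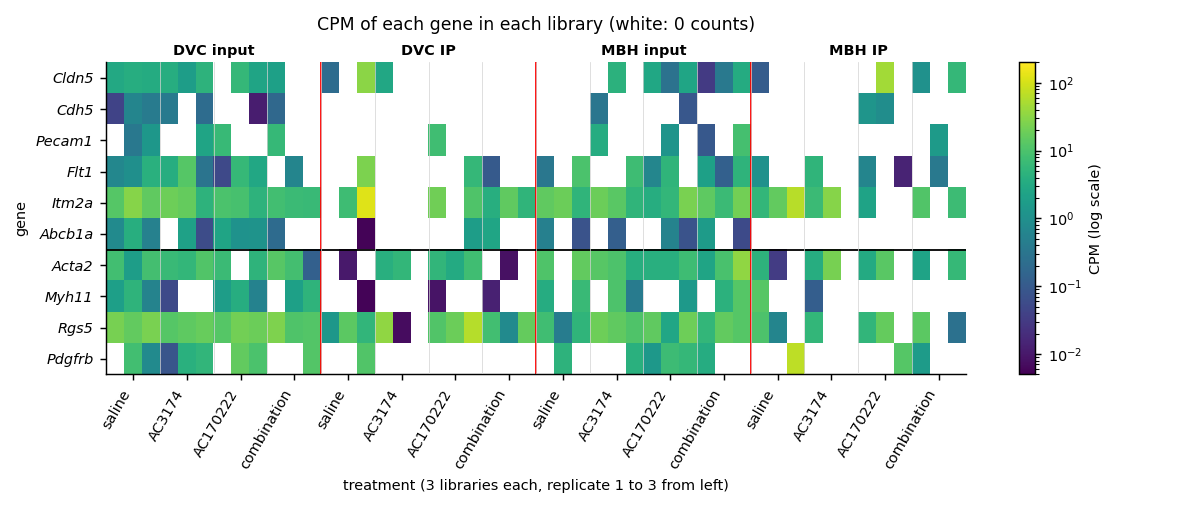
CPM of the 10 members (rows, endothelial above the black line) in the 48 libraries (columns, by region, RNA kind and treatment, 3 libraries each) on a log colour scale, with white for 0 counts. Rgs5 and Itm2a have counts in all 24 inputs, while the IP columns are mostly white.

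Most members were either well counted in a library or not counted at all. Of the 480 values of 10 genes in 48 libraries, 233 (48.5%) were 0, 27 lay between 1 and 9 counts, 47 between 10 and 99, and 173 reached 100 or more. The share at 0 was 23.3% in DVC inputs and 67.5% in DVC IPs, and 36.7% in MBH inputs and 66.7% in MBH IPs. Endothelial members were at 0 in 27.8% of DVC input values and 76.4% of DVC IP values, and mural members in 16.7% and 54.2%. In MBH the endothelial shares were 44.4% and 72.2% and the mural shares 25.0% and 58.3%. The empty values were more common in IPs of both regions, with a median total of 146825156 counts in DVC IPs and 73915212 in DVC inputs, and of 35709983 in MBH IPs and 60659187 in MBH inputs; the part of depth was not tested.

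Genes in general showed empty values too, at a rate that depended on their level. Among 3057 genes at 1 to 5 CPM in DVC inputs, 17.1% of input values and 46.5% of IP values were 0. The 6 members in that range had 30.6% and 80.6%. Among 3740 genes at 5 to 20 CPM the shares were 1.28% and 21.4%, and for Itm2a, Acta2 and Rgs5 2.78% and 30.6%. In MBH, genes at 1 to 5 CPM had 25.1% of input and 49.9% of IP values at 0, against 46.7% and 75.0% for the 5 members there. At 5 to 20 CPM the MBH shares were 5.45% and 27.0% over all genes and 2.78% and 36.1% for the same 3 members. The members thus had a larger share of empty IP values than genes of like input level as a whole in these ranges, a description with no test.

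**Figure D2:**
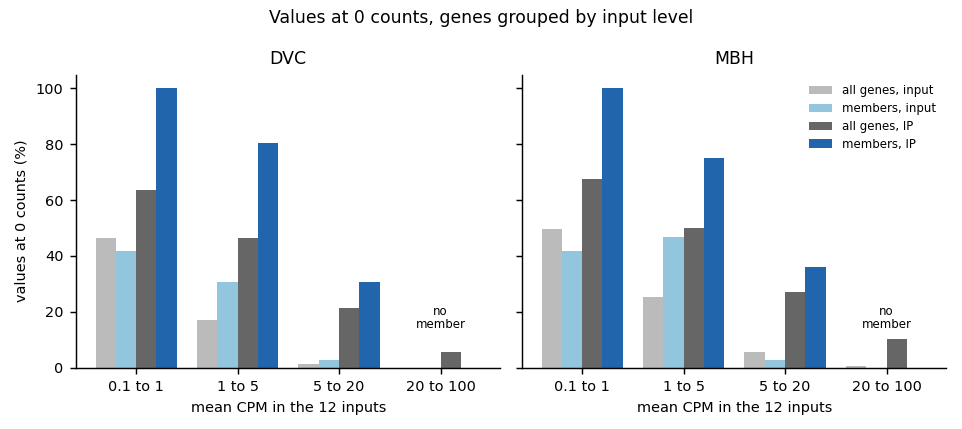
Percentage of values at 0 counts (y axis) for genes grouped by mean input CPM (x axis), in DVC and MBH, for all genes and for the members in input and IP. Member bars in IP stand above the bars of all genes in each range that holds a member; Cdh5 in MBH, below 0.1 CPM, is in no range.

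The number of members with a count was 5 to 10 in DVC inputs (median 7.5) and 0 to 7 in DVC IPs (median 3.0), and 3 to 8 in MBH inputs (median 6.0) and 0 to 6 in MBH IPs (median 3.5). None had a count in DVC IP AC3174 replicate 3 or in MBH IP AC3174 replicate 3, the libraries with the fewest genes in each region (9925 and 6285). All 10 had one in DVC input saline replicates 2 and 3. DVC IP saline replicate 3, with 12652 genes, had 7 members, more than any other IP library. How far the number of genes detected set the number of members was not tested. In DVC, a member counted in both the input and the IP of the same treatment and number in 36 of 120 cases, only in the input in 56, only in the IP in 3 and in neither in 25. In MBH the numbers were 31, 45, 9 and 35.

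**Figure D3:**
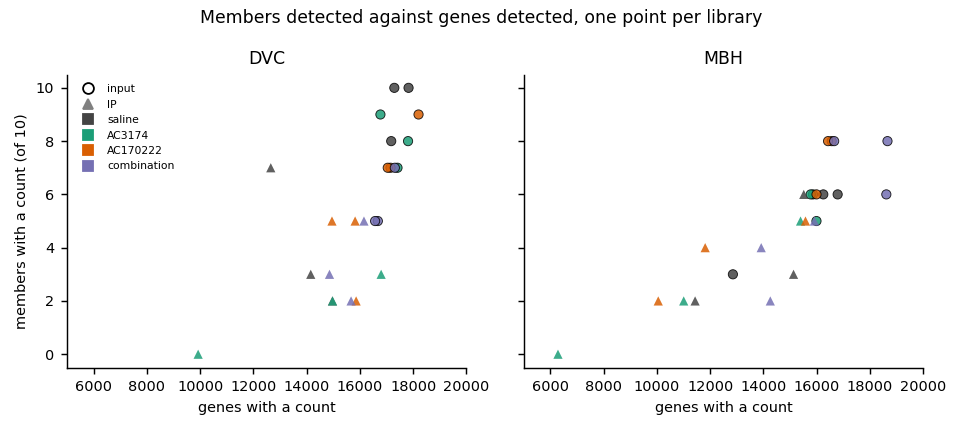
Members with a count (y axis, of 10) against genes with a count (x axis) in each library, circles for input, triangles for IP, colour for treatment. Both libraries with 0 members are IPs at the left end of their panel, with 9925 and 6285 genes.

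The first comparison asks which vascular transcripts were under- or over-represented on precipitated ribosomes. Among endothelial members in DVC, Cdh5 (chr8:104101625-104144511) ranged from 0 to 0.617 CPM over the 12 inputs (median 0.0271), with counts in 7, and was at 0 in all 12 IPs. Taking 3 counts over the 12 IPs as the floor (0.00198 CPM), its level was at least 77.6-fold lower in IP than the input mean of 0.154 CPM. This bound covers counting error only, and without saline replicate 2 the input mean was 0.112 CPM. Pecam1 (chr11:106654217-106750628), an adhesion molecule of endothelial junctions, reached 6.27 CPM in inputs, with counts in 5 of 12, and in IPs was counted in AC170222 replicate 1 alone (7.92 CPM). Abcb1a ranged from 0 to 3.85 CPM in inputs (median 0.674) and from 0 to 2.59 CPM in IPs, where 9 of 12 libraries were at 0. For these genes most IPs were empty, and where Pecam1 and Abcb1a were counted their level was within the range of inputs or, for Pecam1, just above it.

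Cldn5, Flt1 and Itm2a each had 1 DVC IP library, saline replicate 3, well above their highest input. That library held most of their summed IP level. In other libraries, 1 IP also held 100% of the summed level of Pecam1 and 59.0% of that of Abcb1a. Cldn5 (chr16:18776847-18778262) ranged from 0 to 5.73 CPM in DVC inputs (median 2.69) and from 0 to 31.5 CPM in IPs (median 0), where only saline replicates 1 (0.212 CPM) and 3 (31.5 CPM) and AC3174 replicate 1 (2.92 CPM) had counts. Saline replicate 3 held 91.0% of the summed IP level. Flt1 (chr5:147561604-147726011), a VEGF receptor, ranged from 0 to 12.4 CPM in inputs (median 0.831) and from 0 to 24.9 CPM in IPs, again with the highest value, 81.1% of the sum, in saline replicate 3. Itm2a (chrX:107397099-107403376) was counted in all 12 inputs at 4.70 to 29.0 CPM (median 9.55) and in 7 IPs, with a median of 4.46 CPM and 119 CPM in saline replicate 3. The mean IP level of Cldn5 (2.88 CPM) and of Itm2a (15.1 CPM) was therefore above the mean input level (2.54 and 11.8 CPM), while the median IP level of both was below the input median. Without saline replicate 3 the IP means were 0.284 CPM for Cldn5, 0.529 CPM for Flt1 and 5.70 CPM for Itm2a. In that library the 34 other endothelial genes summed to 842 CPM, against 214 and 228 CPM in saline replicates 1 and 2, and the neuronal genes to 21310 CPM, against 37650 and 41850 CPM; their part in the result was not tested.

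Of the mural members in DVC, Myh11 (chr16:14194535-14291372), the smooth muscle myosin heavy chain, was nearly absent from IPs: 9 of 12 were at 0 and the rest held 1 or 2 counts, 4 in all, against 0 to 4.98 CPM (median 1.21) in inputs with 1263 counts. Its mean was 1.72 ± 1.88 CPM in inputs and 0.00232 ± 0.00453 CPM in IPs (SD, n = 12). Pdgfrb, the PDGF receptor of pericytes, ranged from 0 to 15.7 CPM in inputs, with counts in 8 of 12, and was counted in 1 IP, saline replicate 3 (11.4 CPM). Acta2 (chr19:34241090-34255590) ranged from 0 to 12.5 CPM in inputs (median 6.72) and from 0 to 7.77 CPM in IPs (median 0.00918), where 5 libraries held more than 3 CPM and the other 7 at most 0.0102 CPM. Rgs5 (chr1:169655501-169695813) was counted in all 12 inputs (11.0 to 25.7 CPM, median 16.6) and in 11 of 12 IPs (0 to 60.9 CPM, median 9.70), and the groups overlapped widely.

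**Figure D4:**
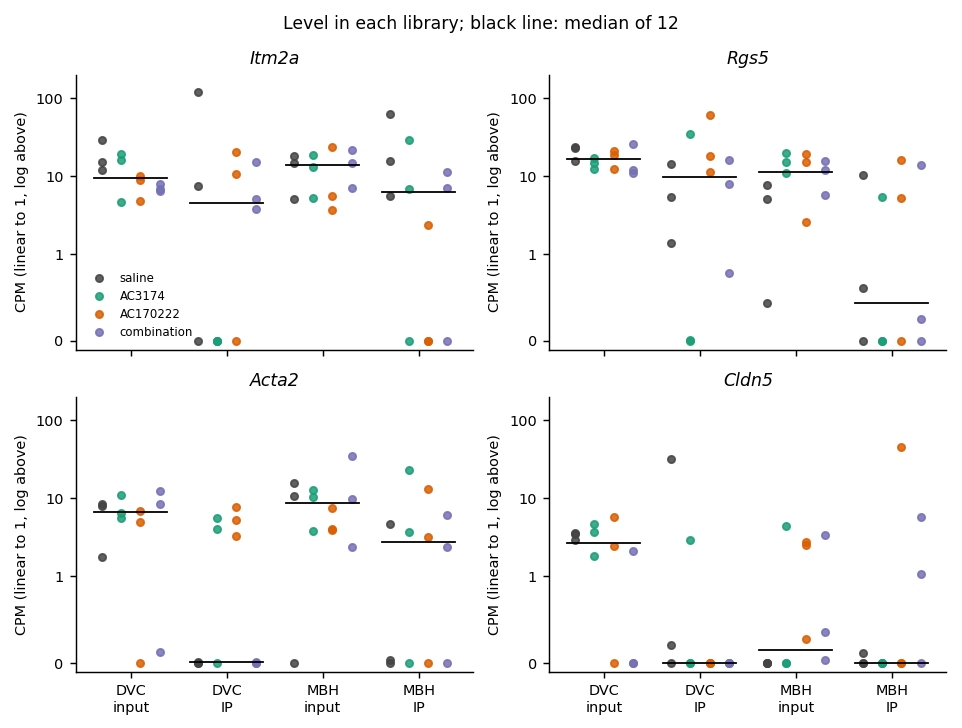
CPM (y axis, linear to 1 and log above) of Itm2a, Rgs5, Acta2 and Cldn5 in each library by region and RNA kind, coloured by treatment, with the median of 12 as a black line. As a ratio of IP to input, the DVC medians of Itm2a and Rgs5 differ less than those of Acta2 and Cldn5, and the top Itm2a and Cldn5 points in DVC IP (119 and 31.5 CPM) are saline replicate 3.

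With edgeR's quasi-likelihood test, 1 term for each of the 8 DVC groups and no pairing of input with IP, 7 of the 10 members fell in IP relative to input at a Benjamini-Hochberg adjusted p under 0.05, and none rose. With input and IP of the same treatment and number paired, 0 of 10 were called, as given below. Without pairing, 20.4% of all 18465 genes tested were called, 13.6% lower and 6.8% higher, and the median log2 difference was -0.37. The 4 endothelial genes called by edgeR were Cdh5 (log2 -5.81 ± 1.18 SE, adjusted p = 0.00644), Cldn5 (-5.09 ± 1.65, 0.04), Pecam1 (-7.15 ± 2.28, 0.0413) and Itm2a (-2.95 ± 1.02, 0.0489). The 3 mural genes called were Myh11 (-7.81 ± 1.35, 0.000897), Acta2 (-5.60 ± 1.20, 0.00353) and Pdgfrb (-8.83 ± 2.26, 0.0152). Abcb1a (-4.05 ± 1.48, 0.0625), Flt1 (-3.36 ± 1.58, 0.155) and Rgs5 (-0.60 ± 0.86, 0.767) did not pass the test. Each SE given with an edgeR difference is its absolute value divided by the square root of the test's F statistic. It restates the test and is no separate measure of spread. The fit averages log2 differences over treatments, and all 10 members but Acta2 and Rgs5 had at least 1 group at 0 throughout, so most of these fitted values depend on how 0 is handled and are not bounds; for Cldn5 and Itm2a the mean CPM has the opposite sign.

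Calls for the members depended on the model. DESeq2's Wald test called 8 members lower, all but Cdh5 and Rgs5, but it also called 6144 genes in all, against 3776 by edgeR. With additive terms for treatment and RNA kind, an alternative chosen after seeing the data, edgeR called 4 members lower: Myh11 (log2 -8.31 ± 1.29, adjusted p = 0.00015), Cdh5 (-6.23 ± 1.21, 0.00557), Pdgfrb (-10.31 ± 3.03, 0.023) and Pecam1 (-8.14 ± 2.79, 0.0499), beside 9.46% of all genes lower and 6.61% higher. Acta2 (-5.39 ± 2.64, 0.188), Cldn5 (-4.79 ± 2.87, 0.301) and Itm2a (-0.51 ± 1.46, 0.884) were lost. Input and IP share a homogenate per the protocol, and the titles, not the protocol, match them by number. With treatment and number as a block, edgeR called 0 of 10 members, the lowest adjusted p being 0.0903 for Acta2. It called 1401 genes in place of 3776. With the block, the fitted differences of the 7 members called without it lay between -7.50 (Myh11) and -4.08 (Itm2a). That of Acta2 was -5.44, of Cdh5 -5.19 and of Pecam1 -4.99. All of these members but Acta2 had groups at 0, so their sizes depend on how 0 is handled. Without the 1 DVC library under 12000 genes and with the rest kept, 4 members were called: Cdh5, Acta2, Myh11 and Pdgfrb. Leaving out the input and IP libraries of 1 treatment and number at a time gave 3 to 7 called members. Acta2 was called in all 12 such fits, Myh11 in the 11, Pdgfrb in the 11 and Cdh5 in the 10 that gave a usable value, Cldn5 and Itm2a in 2 each and Pecam1 in none. Each of the other 3 members was called in 1: Rgs5 without AC3174 replicate 1 (log2 -3.32, edgeR adjusted p = 0.00141), Flt1 without saline replicate 3 (-6.21, 0.0383) and Abcb1a without AC170222 replicate 3 (-6.24, 0.0273). The Rgs5 value thus rested on AC3174 replicate 1, whose IP held 34.6 CPM, and it was -3.30 with the block (adjusted p = 0.137).

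**Figure D5:**
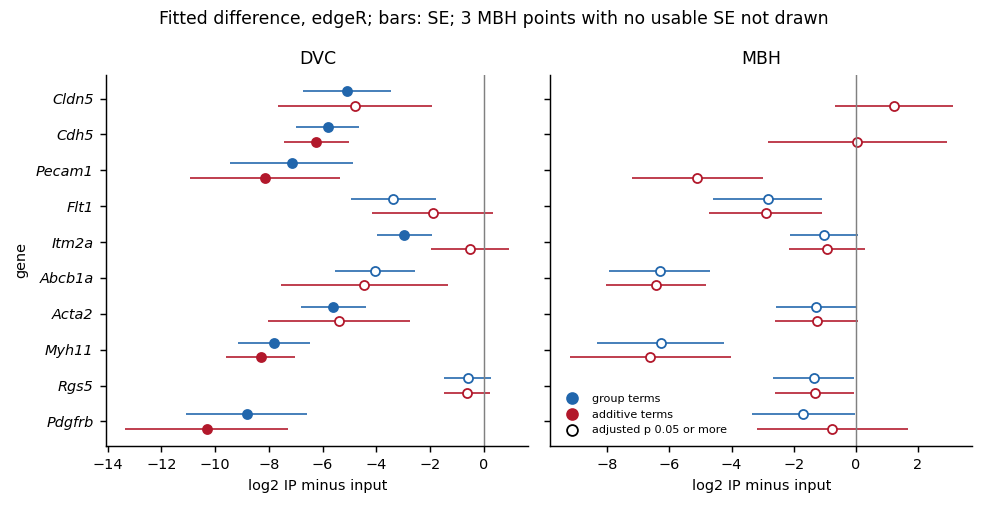
Fitted log2 difference of IP minus input (x axis) for each member (y axis) with its SE, from the fit with group terms (blue) and with additive terms (red), filled where the adjusted p is under 0.05. In DVC Cdh5, Pecam1, Myh11 and Pdgfrb are filled in both fits, and in MBH no point is filled. Both fits leave input and IP of the same treatment and number unpaired.

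In MBH the precipitation separated few genes, and 0 of the 10 members was called by edgeR among 79 of 17461 genes (0.452%; 28 or 0.16% higher and 51 or 0.292% lower, but 40 higher and 44 lower with DESeq2's size factors). With treatment and number as a block 3 genes were called in place of 79. At an unadjusted p under 0.05, 2 members (Abcb1a and Myh11) and 1976 genes passed. DESeq2 called 1 member, Myh11, among 1848 genes. Abcb1a ranged from 0 to 1.65 CPM in MBH inputs (median 0.0645), with 5 of 12 at 0, and was at 0 in all 12 IPs. Against a floor of 3 counts over the IPs (0.00581 CPM), its IP level was at least 44.0-fold below the input mean of 0.256 CPM. This bound covers counting error only, and without combination replicate 1 the input mean was 0.129 CPM. The fitted log2 difference of Abcb1a was -6.31 ± 1.62, with an adjusted p of 0.119 by edgeR. Myh11 ranged from 0 to 12.1 CPM in inputs (median 0.992), and 99.1% of its summed IP level came from saline replicate 1 (13.0 CPM), with an edgeR log2 difference of -6.28 ± 2.04 (adjusted p = 0.183). For these 2 genes nearly all IPs were empty, as they were for Cdh5 and Pecam1.

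Of the other MBH members, Cldn5, Cdh5, Pdgfrb and Itm2a reached a higher level in some IP than in any input. Pecam1, Flt1, Rgs5 and Acta2 did not. Cldn5 ranged from 0 to 4.45 CPM in inputs (median 0.153) and had 45.6 CPM in IP AC170222 replicate 2, which held 86.8% of its IP sum. Pdgfrb ranged from 0 to 7.28 CPM in inputs (median 0.714) and had 69.1 CPM in IP saline replicate 3, 83.1% of its IP sum, so that its mean was higher in IP (6.93 CPM) than in input (2.25 CPM). Both libraries were among those with fewer than 12000 genes. Itm2a was counted in all 12 inputs (3.71 to 23.6 CPM, median 13.9) and in 8 IPs (median 6.21, highest 63.3 CPM, also saline replicate 3). Rgs5 was counted in all 12 inputs (0.433 to 19.5 CPM, median 11.4) and in 7 IPs (median 0.437, highest 16.1 CPM). Acta2 was counted in 11 inputs (highest 35.1 CPM, median 8.58) and in 8 IPs (median 2.77, highest 23.2 CPM). Flt1 ranged from 0 to 10.0 CPM in inputs (median 0.486) and from 0 to 5.21 CPM in IPs. Cdh5 was counted in 2 inputs and 2 IPs, and Pecam1 in 4 inputs and 1 IP. The fitted differences of these genes with a usable SE lay between -2.83 (Flt1) and -1.03 (Itm2a), each less than 2 SE from 0; Cldn5, Cdh5 and Pecam1 gave no usable SE. These sizes were not stable: Pdgfrb moved from -1.69 to -7.71 without the libraries under 12000 genes and to -5.12 without saline replicate 3. Flt1 lay between -5.36 (without AC3174 replicate 1) and -0.15 (without AC3174 replicate 3), and with treatment and number as a block Rgs5 was at -4.49 and Itm2a at -3.38, none of them called.

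Whether the IP effect differed between regions was tested in 1 model over all 48 libraries. edgeR called 852 of 19416 genes (4.39%; 453 or 2.33% higher in DVC and 399 or 2.06% lower, but 153 and 491 with DESeq2's size factors) and none of the 10 members, of which 1, Acta2, had an unadjusted p under 0.05 (2601 genes in all). Myh11, Pecam1, Pdgfrb, Cdh5, Abcb1a and Cldn5 gave no usable SE in this fit because of groups at 0, so for them it decides nothing. With the block 200 genes and no member were called. For Acta2 the difference of differences was log2 -4.22 ± 1.65 (edgeR adjusted p = 0.174); it was -2.54 without saline replicate 1 of both regions and -0.83 with additive terms (adjusted p = 0.961). With additive terms, 1 member, Cdh5, was called (-8.25 ± 2.12, edgeR adjusted p = 0.0155, beside 5.94% of genes): its IPs were at 0 throughout DVC, while in MBH AC170222 replicates 1 and 2 held 1.28 and 0.916 CPM. DESeq2 called 3217 genes, among them 5 members: Acta2, Cldn5, Itm2a and Pdgfrb with a lower IP-to-input ratio in DVC and Abcb1a with a higher one. All of these but Acta2 had groups at 0, so their DESeq2 differences depend on how 0 is handled.

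No member passed the test between the regions in input. Of 18576 genes 21.9% were called between DVC and MBH inputs and 0 of the 10 members, although 3 members, Cldn5, Cdh5 and Rgs5, were among the 6175 genes with an unadjusted p under 0.05, and DESeq2 called 2, Cldn5 and Rgs5. Rgs5 was at 11.0 to 25.7 CPM in DVC and 0.433 to 19.5 CPM in MBH, a log2 difference of 0.82 ± 0.38 (edgeR adjusted p = 0.13). Cldn5 had a mean of 2.54 ± 1.86 CPM in DVC and 1.15 ± 1.64 CPM in MBH (SD, n = 12), a fitted difference of 2.93 ± 1.25 (0.107). MBH saline inputs were at 0 for Cldn5, so this size depends on how 0 is handled: it was 1.40 with additive terms and 10.87 with saline libraries alone. Without AC3174 replicate 2 of both regions Cldn5 was called (log2 5.40, edgeR adjusted p = 0.0205). Itm2a had the fitted difference nearest to 0, with 11.8 ± 7.13 CPM in DVC and 12.6 ± 7.03 CPM in MBH (log2 -0.19 ± 0.37). Acta2 (-0.55 ± 0.86), Myh11 (-1.76 ± 1.33) and Flt1 (-0.64 ± 1.32) also had lower fitted values in DVC, without passing the test, while the mean of Flt1 was 2.65 CPM in DVC and 2.58 CPM in MBH.

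Other vascular genes were followed as lists. Of 34 other endothelial genes, 8 were higher and 0 lower in DVC than in MBH inputs, with a list median of 0.96 against 0.10 over all genes, beside 11.7% of all genes higher and 10.2% lower. They included Bsg, a partner of monocarboxylate transporters (196 against 118 CPM, log2 0.78 ± 0.12), Slc2a1, the glucose transporter of the barrier (30.6 against 12.5 CPM, 1.34 ± 0.47), Spock2 (74.7 against 29.6 CPM, 1.35 ± 0.45) and Mfsd2a, the lipid carrier of the barrier (17.0 against 3.47 CPM, 3.71 ± 0.87). The fit averages log2 differences over treatments, so a fitted value such as that of Mfsd2a need not match the ratio of mean CPM. Of 15 other pericyte genes 3 were higher in DVC: Mcam (24.2 against 2.03 CPM), Abcc9 (2.66 against 0.347 CPM) and Foxf2 (0.841 against 0.388 CPM). Foxf2 was at 0 in 8 of 12 MBH inputs, with a highest value of 3.57 CPM there, and its SD was 0.912 CPM in DVC and 1.02 CPM in MBH. Of 11 other smooth muscle genes tested, Myl9, a myosin light chain, was lower in DVC (12.7 against 21.0 CPM) and none was higher. Of 18 signalling genes tested, 5 were higher and 1 lower, among them the ligands Vegfb (97.3 against 41.6 CPM) and Vegfa (38.4 against 21.6 CPM) and the receptors S1pr1 (32.5 against 11.1 CPM) and Nrp2 (23.5 against 8.58 CPM). Bsg, Vegfa and Spock2 are also made by cells outside the vessel wall, and of the lists for other cells 10 of 10 oligodendrocyte, 9 of 10 astrocyte and 7 of 10 neuronal genes were higher in DVC too; their part in the vascular lists was not tested.

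Between IP and input in DVC, called genes of these 4 vascular lists were all lower in IP, beside 13.6% of all genes lower and 6.8% higher. Of 32 other endothelial genes tested 9 were lower and 0 higher (list median -2.84), including Bsg (113 against 196 CPM), Spock2 (44.3 against 74.7 CPM), Sox18, an endothelial transcription factor (1.12 against 3.66 CPM), and Ptprb, a vascular phosphatase (0.0325 against 3.99 CPM). Of 14 other pericyte genes 5 were lower, among them the proteoglycan gene Cspg4 (0 against 2.91 CPM), Ndufa4l2 (1.32 against 2.71 CPM), Art3 and Foxf2. Of 11 other smooth muscle genes Lmod1 was lower (0.0235 against 0.594 CPM). Of 18 signalling genes 3 were lower: Vegfb (22.3 against 97.3 CPM), Tgfbr2 (3.66 against 6.60 CPM) and Angpt1 (1.41 against 6.03 CPM). Of 8 fibroblast genes tested Col1a1 was lower. Microglial genes (6 of 10) and oligodendrocyte genes (4 of 10) were also lower and none higher, while 4 of 10 neuronal, 2 of 10 astrocyte and 2 of 5 red blood cell genes were higher and none lower. With treatment and number as a block, 2 other endothelial genes (Bsg and Ctla2a), 2 signalling genes (Vegfb and Tgfbr2), and 0 other pericyte, smooth muscle and fibroblast genes were called lower, against 4 microglial and 4 oligodendrocyte genes lower and 4 neuronal genes higher. Whether vascular genes fell more than other genes was not tested. In MBH none of these lists had a called gene: Bsg was at 61.6 CPM in IP and 118 CPM in input (log2 -1.06 ± 0.60), and Myl9 at 6.60 and 21.0 CPM (-2.05 ± 1.19).

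No drug comparison called any gene by edgeR: in each of the 12 comparisons with saline 0% of genes and 0 members passed, while 127 to 1427 genes had an unadjusted p under 0.05 and DESeq2 called 144 to 1154. The comparisons within a region and RNA kind share their saline libraries. In DVC inputs, Itm2a was at 12.1, 29.0 and 15.0 CPM with saline, at 8.02, 6.75 and 6.52 CPM with the combination, at 10.1, 8.99 and 4.73 CPM with AC170222 and at 19.4, 16.1 and 4.70 CPM with AC3174. The log2 difference of the combination from saline was -1.36 ± 0.57 (unadjusted p = 0.0352, edgeR adjusted p = 0.891). It was -0.50 with the pair of code numbers (1 and 2, 3 and 4, 5 and 6) as a covariate, which overlaps treatment, and -0.91 without saline replicate 2. Myh11 was at 2.01, 4.98 and 0.581 CPM with saline, at 0.0519, 0 and 0 CPM with AC3174, and at 1.83, 3.72 and 0.551 CPM with AC170222. Its AC3174 difference was -6.90 ± 2.43 (unadjusted p = 0.0156, edgeR adjusted p = 0.993), which DESeq2 called (adjusted p = 0.0316). Cdh5 was at 0.0428, 0.617 and 0.403 CPM with saline and at 0, 0 and 0.0115 CPM with AC170222 (-5.84 ± 2.42, unadjusted p = 0.0337, edgeR adjusted p = 1). Cldn5 was at 2.95, 3.62 and 3.44 CPM with saline and at 2.10, 0 and 0 CPM with the combination, and did not reach an unadjusted p of 0.05.

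In DVC IPs, Acta2 was at 0, 0.0102 and 0 CPM with saline and at 0, 0.00812 and 0 CPM with the combination, but at 4.01, 5.63 and 0 CPM with AC3174 and at 5.30, 3.32 and 7.77 CPM with AC170222. Like 2 saline libraries, 1 AC3174 library was at 0. By edgeR the differences were 10.37 ± 3.48 for AC170222 (unadjusted p = 0.0126, adjusted p = 0.852) and 9.63 ± 3.38 for AC3174 (unadjusted p = 0.016, adjusted p = 0.677), and DESeq2 called both (adjusted p = 0.000324 and 0.001). The 3 saline libraries held 1 count in all for Acta2, so the size of the ratio is not determined. Itm2a was at 0, 7.50 and 119 CPM with saline and at 0 in all 3 AC3174 IPs (unadjusted p = 0.0103, edgeR adjusted p = 0.677); DESeq2 called this one too. One AC3174 IP had 9925 genes, fewer than any other DVC library. Rgs5 was at 1.37, 14.1 and 5.35 CPM with saline, 34.6, 0.00721 and 0 CPM with AC3174, 11.4, 18.2 and 60.9 CPM with AC170222 and 8.02, 0.788 and 16.2 CPM with the combination, and each treated group overlapped saline.

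In MBH inputs, Cldn5 was at 0 in all 3 saline libraries. It was at 0, 4.45 and 0 CPM with AC3174, at 2.72, 0.275 and 2.54 CPM with AC170222 and at 0.0303, 0.357 and 3.37 CPM with the combination. The unadjusted edgeR p was 0.0266, 0.0246 and 0.0284 for the 3 comparisons and the adjusted p 0.56, 0.709 and 0.566, and DESeq2 called all 3, which share the saline libraries. With the pair of code numbers as a covariate the fitted edgeR difference went from 9.58 to 2.41 for AC3174 and from 9.34 to 2.98 for the combination, and was 9.85 for AC170222. Saline replicate 2 had the fewest genes of the MBH inputs, 12853. Acta2 was at 10.7, 0 and 15.8 CPM with saline and at 2.39, 9.63 and 35.1 CPM with the combination, and Rgs5 at 7.70, 0.433 and 5.07 CPM with saline and at 19.5, 15.2 and 10.9 CPM with AC3174. The unadjusted edgeR p of this Rgs5 comparison was above 0.05. In MBH IPs no member had an unadjusted edgeR p under 0.05, 4 of 10 members did not pass the filter on low counts, and DESeq2 called 1 member, Cldn5 with AC3174, where saline held 0.111, 0 and 0 CPM and AC3174 0 in all 3 libraries. A filter on low counts left 5 members in the DVC IP comparisons, 9 in MBH inputs and all 10 in DVC inputs.

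The members varied largely apart from each other across inputs. Over the 24 input libraries, deviations of log2(CPM + 2) from the group means had a median pairwise Pearson r of 0.05 among the 15 endothelial pairs (-0.35 to 0.39), 0.10 among the 6 mural pairs (-0.75 to 0.54) and 0.00 among the 24 pairs between the sets (-0.40 to 0.56). Against the mean of the other mural members, Myh11 had r = 0.34, Rgs5 0.31, Acta2 -0.18 and Pdgfrb -0.55, and against the other endothelial members r lay between -0.19 (Flt1) and 0.25 (Cdh5). Among 11378 other genes at 5 CPM or more, the 6 most like the mean endothelial deviation were Akt1 (r = 0.70), Klf5 (0.68), Baz2b and Itih5 (0.66 each), and Dclre1a and Tent4b (0.62 each). For the mural mean they were Dennd6a (0.80), Spats2l and Kifap3 (0.79 each), Tarsl2 and Fez2 (0.78 each) and Mtrr (0.77). These libraries share depth and preparation, and many member values are 0, so the correlations are descriptions of these 24 libraries.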

How the data were processed

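The authors deposited raw read counts per Ensembl gene in 1 table of 48 libraries; TopHat2 2.0.11, HTSeq 0.6.1p1 and GRCm38 are named in the submitters' processing notes, with no strand setting. RNA was amplified with a low-input SMART-Seq kit before Nextera XT library preparation, per the labels' protocols, and counts carry no molecular identifiers, so floors cover counting error only. Of 38293 gene identifiers, 36429 matched GENCODE M21, which gave positions and exon lengths. Counts were tested with edgeR 4.0.16 (quasi-likelihood test, 2-sided, TMM, filterByExpr, Benjamini-Hochberg over all genes tested, threshold 0.05) in R 4.3.3, and DESeq2 1.42.0 was an alternative, beside other size factors, no count filter, a replicate block, fewer libraries and leaving out replicates. The script was tested on simulated data in which only genes above the mean input level of every member were changed. That test therefore does not cover genes as low as the members or with groups at 0. No pair of libraries of a group agreed within sampling noise over the 48 replicate pairs.

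The members and lists were chosen with earlier results of these data known. All 10 members are named; of other lists, up to 4 called genes by mean level, or else the 2 of highest level. The 6 most like genes were taken by Pearson r over the 24 inputs.

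Input and IP share a homogenate per the protocol, and titles give them the same number; yet the correlation of their deviations from group means had a median of 0.014 (DVC) and 0.004 (MBH) over genes, and 0 of 12 pairs in each region exceeded 0.1. Numbers across treatments or regions carry no stated pairing.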

Additional observations from a re-analysis of the deposited data

Results flagged for a closer look

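A set of 4 genes of the other vascular lists had an IP-to-input difference that differed between the regions by edgeR's test of the difference, given as DVC minus MBH on the log2 scale. They were 4 of 79 genes tested in the 4 vascular lists (5.06%), near the 4.39% called over all genes. Vegfb, a ligand of the receptor encoded by Flt1, differed by -2.16 ± 0.58 (edgeR adjusted p = 0.0233): it was at 52.7 to 137 CPM in DVC inputs and 7.93 to 59.0 CPM in DVC IPs, and at 25.2 to 66.8 CPM in MBH inputs and 0.515 to 119 CPM in MBH IPs. Esam, an endothelial adhesion gene, differed by 9.43: it was at 0 in 3 of 12 DVC IPs and in 11 of 12 MBH IPs. Foxf2, a pericyte transcription factor, differed by -9.16 and was at 0 in 10 DVC IPs and 8 MBH IPs. Foxc1 differed by -8.58 and was at 0 in 11 DVC IPs and 5 MBH IPs. For Esam, Foxf2 and Foxc1 some groups were at 0 throughout, so these sizes are not bounds. Vegfb and Esam were each called in 13 of 18 alternatives, Foxf2 and Foxc1 in 10 each, none of the 4 with the replicate block, and none changed sign in an alternative with a usable fit.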

How the results depend on the processing

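Member counts by edgeR were within 1.5 times of the main value under the other alternatives, except as follows. IP against input in DVC (7 called) gave 4 without the library under 12000 genes, 4 with additive terms, 0 with the replicate block, and 3 to 7 when the input and IP of 1 treatment and number were left out. DVC against MBH inputs (0 called) gave 0 to 1 in such fits. The region difference (0 called, with a usable SE for Rgs5, Flt1, Itm2a and Acta2 alone) gave 1 with additive terms. DESeq2's Wald test called 1 member for IP against input in MBH, 2 between regions, 5 in the region difference, 2 for AC3174 in DVC IP, and 1 each for AC3174 in DVC input, AC170222 in DVC IP, AC3174 in MBH IP, and each of the 3 treatments in MBH input. Over all genes, IP against input in DVC had 3776 calls, 1401 with the replicate block and 6144 with DESeq2. In MBH it had 79, and 3 with the block, 44 without the count filter, 363 without the small libraries, 1848 with DESeq2 and 4 to 587 leaving 1 number out. Region calls fell from 4067 to 19 with saline libraries alone. The region difference had 852 calls, 200 with the block, 1665 without the small libraries, 3217 with DESeq2 and 396 to 936 leaving 1 number out. Drug comparisons called 0 genes, and 0 to 7 leaving 1 library out, 2 for the combination in DVC IP without the small library, and 3 and 1 for AC3174 and the combination in MBH IP with the pair of code numbers as a covariate. The block called 0 members and 0 genes in the 12 drug comparisons, where numbers pair nothing stated, and 0 members between regions. Same-numbered libraries of different treatments had a median r of 0.152 in MBH IPs, with 14 of 18 pairs over 0.1, against 2 to 3 of 18 pairs in the other kinds, and 4 of 12 pairs of DVC and MBH inputs were over 0.1. For 13 single results, 19 alternatives gave no usable value. The cause of these differences was not tested.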
